A study of Mus musculus with 7 samples.

Results

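The 39 genes described here are expressed by the endothelial cells that line brain capillaries and form the blood-brain barrier. They were taken by symbol from a count table of 25467 genes in the medial prefrontal cortex (mPFC) of mice. All 39 were in the table and all 39 passed the low-count filter, among 17211 genes that did. The list was drawn up from known function (junctions, transporters, caveolae, receptors, surface and secreted glycoproteins, and transcription factors), with earlier results of these data known.

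The study compared 4 libraries labelled rhTSP1, which here is read as recombinant human thrombospondin-1 and is written TSP1, with 3 libraries labelled PBS, a buffered saline control, and its design names 7 mice. Library construction started from 1.3 µg of RNA per sample. The sources used here do not give genotype, strain, age, sex, dose, route or time after treatment. The counted total per library lay between 15090336 and 20755167 reads, and a member had between 20 and 8128 reads in a library.

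Brain endothelial cells differ from those of most organs in that tight junction strands seal the gaps between cells and few vesicles cross them. Nutrients therefore enter through named carriers, such as those for glucose, large neutral amino acids and lactate, while efflux pumps return many drugs to the blood. Signals from surrounding astrocytes and pericytes, Wnt ligands among them, keep this state, and transcription factors of the ETS and SOX families maintain endothelial identity. Thrombospondin-1 is a matrix glycoprotein that acts on endothelial cells, where it inhibits the growth of vessels. In bulk RNA, fewer endothelial cells in a dissection and less RNA per endothelial cell cannot be told apart.

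Because ETS, SOX and TCF/LEF factors are themselves in the list, the promoter windows of members were searched for short motifs of these families and for the CCAAT box, a general promoter element. The windows run from 250 bases before to 50 after a start site and come from RefSeq on GRCm38.p6, where 24 of the 39 members have 38 windows. The letters searched on both strands were AGGAAG (ETS), AACAAT (SOX), CTTTGA (TCF/LEF) and CCAAT. Windows are printed for 3 members, 1 window each where a gene has several: the tight junction gene Cldn5 (chr16:18776597-18776896, plus strand), the surface glycoprotein gene Ly6c1 (chr15:75048614-75048913, minus strand) and the secreted vascular factor gene Egfl7 (chr2:26580833-26581132, plus strand). They were chosen after their values were seen, because these genes had lower values with TSP1 and because together they include windows with and without an ETS match. Each is written 5′ to 3′ along its gene, and capitals mark any of the motifs.
Cldn5: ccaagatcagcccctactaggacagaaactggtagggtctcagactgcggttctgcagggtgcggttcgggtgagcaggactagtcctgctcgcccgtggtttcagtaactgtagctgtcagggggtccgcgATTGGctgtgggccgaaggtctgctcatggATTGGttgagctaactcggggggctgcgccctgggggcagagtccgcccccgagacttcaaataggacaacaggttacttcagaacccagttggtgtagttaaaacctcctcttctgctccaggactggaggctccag
Ly6c1: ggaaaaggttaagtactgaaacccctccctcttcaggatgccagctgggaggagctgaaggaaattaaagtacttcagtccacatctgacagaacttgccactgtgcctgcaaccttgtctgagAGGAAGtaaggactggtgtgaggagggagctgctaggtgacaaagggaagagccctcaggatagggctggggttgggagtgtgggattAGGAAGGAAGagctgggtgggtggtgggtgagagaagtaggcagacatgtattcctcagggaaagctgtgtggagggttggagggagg
Egfl7: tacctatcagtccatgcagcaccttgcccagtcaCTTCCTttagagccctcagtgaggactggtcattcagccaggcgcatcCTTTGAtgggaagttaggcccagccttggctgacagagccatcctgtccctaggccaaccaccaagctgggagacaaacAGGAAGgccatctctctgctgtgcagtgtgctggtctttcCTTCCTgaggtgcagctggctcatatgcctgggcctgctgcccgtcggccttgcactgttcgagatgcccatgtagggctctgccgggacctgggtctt

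The Cldn5 window held 2 CCAAT boxes on the minus strand, beginning 118 and 88 bases before the start site, and none of the other letters. The Ly6c1 window held 3 ETS matches, of which 2 overlap each other, and the Egfl7 window held 3 ETS matches and 1 TCF/LEF match. The Ly6c1 window not printed held 0 ETS matches and 1 CCAAT box. The Egfl7 windows not printed held 2 and 0 ETS matches and no TCF/LEF match. An ETS match was present in 19 of the 38 member windows (50%), against 35.4% of all 32851 windows. For TCF/LEF the shares were 10.5% and 16.0%, for SOX 10.5% and 10.7%, and for the CCAAT box 39.5% and 37.4%. Several windows belong to 1 gene, so these shares are descriptions, and a match does not show that a factor binds there.

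Per exon length, the members spanned a wide range. The highest was Bsg, at 192 CPM per kb of exon (CPM, reads per 1e6 reads counted after TMM scaling, averaged over the 7 libraries), and it encodes basigin, a membrane chaperone of lactate carriers that neurons and glia also make. The glucose carrier gene Slc2a1 followed at 35.3, then Itm2a (25.3), Cldn5 (23.6), Ly6c1 (22.2), Slc7a5 (19.9) and Ly6a (18.4) CPM per kb, and these last 5 overlapped each other in their library values. The lowest levels were those of the transcription factor genes Lef1 (0.303) and Foxq1 (0.4) and of the surface glycoprotein genes Emcn (0.873) and Icam2 (1.01 CPM per kb). The median member stood at 4.76 CPM per kb, against 4.22 for all genes tested. The 3 genes that define endothelial cells in this list, Cldn5, Pecam1 and Cdh5, were present in every library, with a summed level of 55.6 to 69.1 CPM with TSP1 and 68 to 84.7 CPM with PBS.

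**Figure D1:**
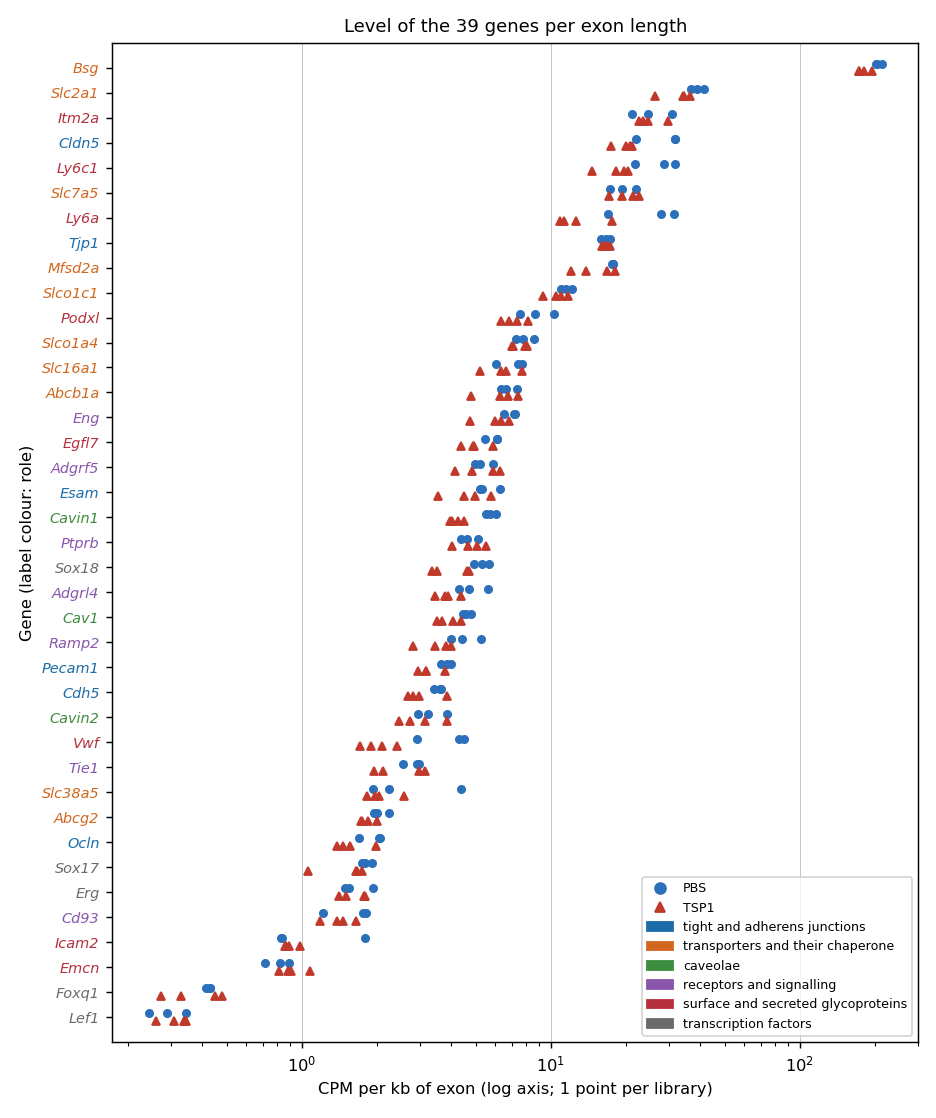
Level of each of the 39 genes in CPM per kb of exon on a log axis, with 1 point per library (circles PBS, triangles TSP1) and label colours for the role of the gene. Bsg stands highest at a mean of 192 and Lef1 lowest at 0.303, and for most genes the circles and triangles overlap.

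Most members had lower fitted values with TSP1, and none passed the test at an FDR under 0.05. With the quasi-likelihood test of edgeR, 0 of the 39 did (background 0.0% of all genes), and the adjusted p of members ran from 0.117 to 0.994. At an unadjusted p under 0.05, 14 of the 39 were lower with TSP1 (35.9%, against 5.44% of all genes tested) and 0 were higher (4.21% of all genes; 9.65% in either direction). The fitted log2 fold change was below 0 for 35 of the 39 (89.7%, against 48.9% of all genes), with a median of -0.22 over the members and 0.00 over all genes. Every TSP1 library lay below every PBS library for 8 members (20.5%, against 5.26% of all genes), and the opposite held for 0 (4.83%). The members were chosen with earlier results of these data known, so these shares are descriptions. DESeq2 called 5 members, Cldn5, Ly6c1, Ly6a, Vwf and Cavin1 (adjusted p = 1.84e-06 to 0.0238; 0.603% of genes with an adjusted p were called), edgeR's exact test called 5 (0.494% of all genes) and limma-voom called 0.

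**Figure D2:**
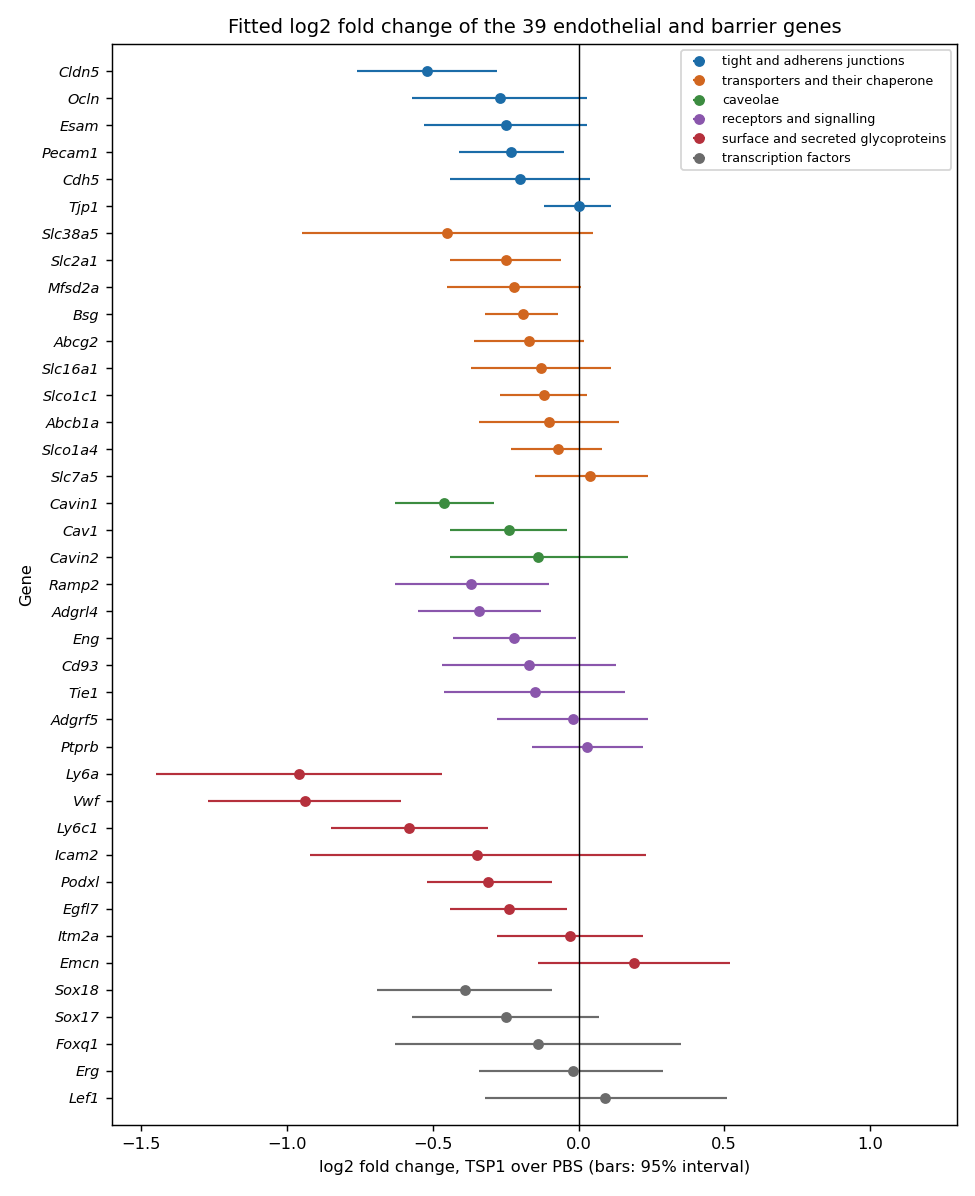
Fitted log2 fold change, TSP1 over PBS, of each of the 39 genes, grouped and coloured by role; points are the edgeR estimates and bars are 95% intervals. Of the 39 estimates 35 lie below 0, with Ly6a (-0.96) and Vwf (-0.94) farthest to the left and Emcn (0.19) farthest to the right.

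The 7 libraries differed in the level of the whole list. Relative to the mean of the 7, the mean log2 CPM of the 39 genes was -0.03, -0.10, -0.01 and -0.26 in TSP1 replicates 1 to 4 and 0.15, 0.23 and 0.01 in PBS replicates 1 to 3. TSP1 replicate 4 was the lowest library for 20 of the 39 genes and PBS replicate 2 the highest for 20, while PBS replicate 3 lay next to the TSP1 libraries. TSP1 replicate 4 also stood apart in markers of other cells: its mean over 9 striatal neuron genes stood at 1.43 on the same log2 scale (the other libraries -0.31 to -0.14) and its mean over 10 oligodendrocyte genes at 0.89 (-0.59 to 0.42). TSP1 replicate 3 had the most blood transcripts, at 1.32 over 7 tested blood genes (the other libraries -0.72 to 0.31). Without TSP1 replicate 4, 10 members were lower at an unadjusted p under 0.05 and the median was -0.15. Without PBS replicate 2, 7 members were lower at that p and the median was -0.18, and 1403 of all genes passed it in either direction.

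**Figure D3:**
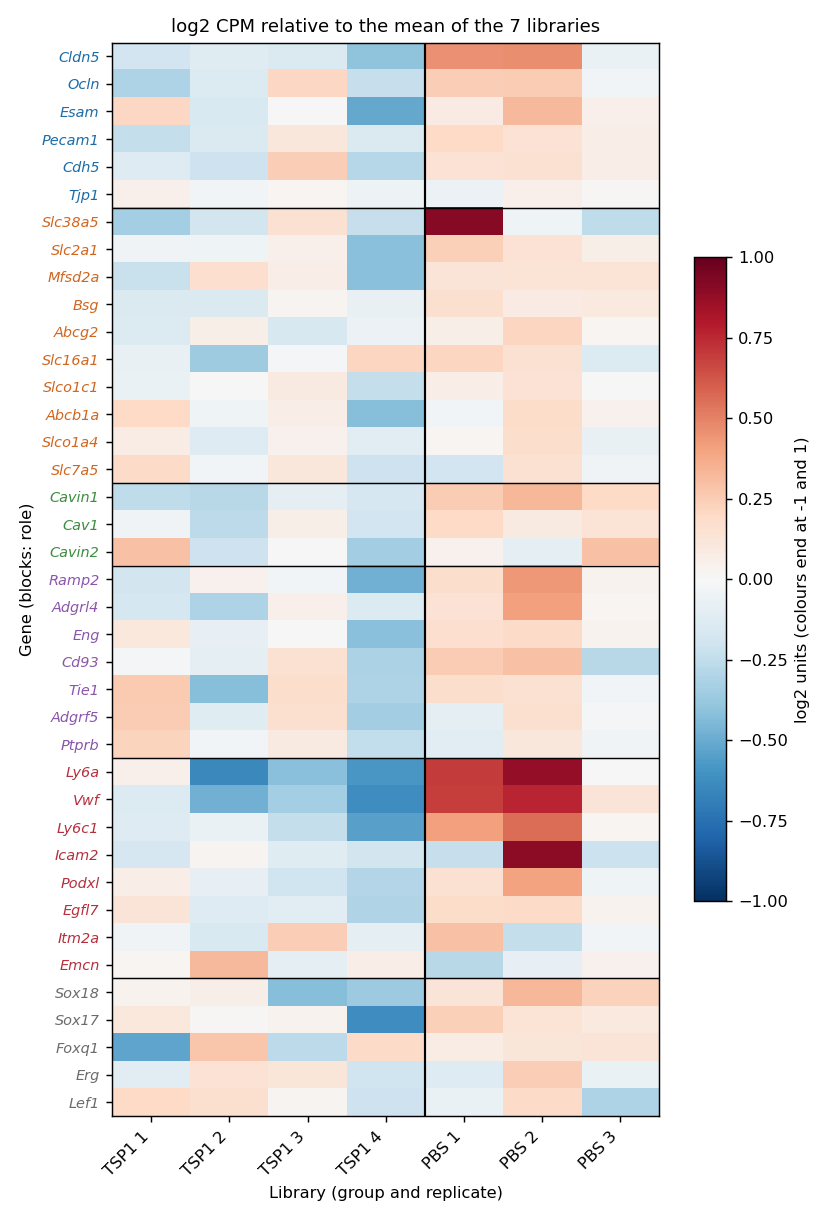
log2 CPM of each gene (lines, in blocks by role) in each library (columns) relative to the mean of the 7 libraries, from blue (lower) to red (higher). PBS replicates 1 and 2 are mostly red and TSP1 replicate 4 mostly blue, with PBS replicate 3 (mean 0.01) close to white.

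Of the 6 junction genes, 2 were lower at an unadjusted p under 0.05 (5.44% of all genes were), and the group median was -0.24. Cldn5 encodes claudin-5, the dominant tight junction strand protein of brain endothelium, and lies on chromosome 16 from 18776847 to 18778262 (GRCm38; all members are protein-coding). It had 28.5, 30, 29.5 and 24.7 CPM in TSP1 replicates 1 to 4 and 44.8, 44.9 and 31.2 CPM in PBS replicates 1 to 3. The groups did not overlap, although PBS replicate 3 exceeded the highest TSP1 library by little. The means were 28.2 ± 2.37 (SD, n = 4) and 40.3 ± 7.89 CPM (SD, n = 3). The log2 fold change was -0.52 (SE 0.12, edgeR adjusted p = 0.217). Cldn5 passed in DESeq2 (adjusted p = 0.0238), in edgeR's exact test (adjusted p = 0.0261) and, by the quasi-likelihood test, without PBS replicate 3 (log2 fold change -0.67, adjusted p = 0.0277). Over the 16 alternatives its adjusted p ranged from 0.0238 to 0.591.

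Pecam1, an adhesion molecule at the borders between endothelial cells (chromosome 11, 106654217 to 106750628), had 18.3, 19.6, 23.4 and 19.6 CPM with TSP1 and 24.8, 23.9 and 22.6 CPM with PBS. Only TSP1 replicate 3 reached the range of the PBS libraries (log2 fold change -0.23, SE 0.09, edgeR adjusted p = 0.459). Cdh5, the cadherin of endothelial adherens junctions (chromosome 8, 104101625 to 104144511), had 12.5, 11.8, 16.2 and 11.2 CPM with TSP1 and 15.1, 15.2 and 14.3 CPM with PBS. Here TSP1 replicate 3 was the highest of all 7, and the log2 fold change of -0.20 (SE 0.12) had an edgeR adjusted p = 0.653. Esam, another adhesion molecule of these junctions, was at -0.25 (SE 0.14) on the log2 scale and Ocln, the tight junction protein occludin, at -0.27 (SE 0.15), both with overlapping groups. Tjp1, the scaffold protein ZO-1 that many cell types express, had 130 ± 3.91 CPM (SD, n = 4) and 131 ± 4.89 CPM (SD, n = 3). The 95% interval of its log2 fold change ran from -0.12 to 0.11.

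Among 9 transporter genes and the chaperone gene Bsg, 2 were lower at an unadjusted p under 0.05 (5.44% of all genes were), and the median was -0.15. Slc2a1, the glucose transporter GLUT1 of endothelium and astrocytes (chromosome 4, 119108711 to 119137983), had 120, 119, 127 and 92 CPM with TSP1 and 145, 136 and 128 CPM with PBS. Its groups did not overlap, by a narrow margin between TSP1 replicate 3 and PBS replicate 3, and the log2 fold change was -0.25 (SE 0.10, edgeR adjusted p = 0.444). Bsg (chromosome 10, 79704491 to 79711969) had 314, 315, 355 and 330 CPM with TSP1 and 388, 367 and 372 CPM with PBS. All TSP1 libraries were below all PBS libraries, and the log2 fold change was -0.19 (SE 0.07, edgeR adjusted p = 0.359), a level 12.6% lower.

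The other transporters did not pass at either threshold. Mfsd2a, a lipid carrier that also keeps vesicle transport low in barrier endothelium, had a log2 fold change of -0.22 (SE 0.12), and its PBS libraries were close together (39.9 ± 0.115 CPM, SD, n = 3) while TSP1 ranged from 27.2 to 40.7 CPM. The efflux pump genes Abcg2 and Abcb1a were at -0.17 (SE 0.10) and -0.10 (SE 0.12). Of the 50-base words of Abcb1a, 22.5% also occur in other genes, mainly its copy Abcb1b (3.28 to 5.87 CPM), so its counts are uncertain. The organic anion carrier genes Slco1c1, which moves thyroid hormone, and Slco1a4 were at -0.12 (SE 0.08) and -0.07 (SE 0.08). The lactate carrier gene Slc16a1 was at -0.13 (SE 0.12), and the large neutral amino acid carrier gene Slc7a5 at 0.04 (SE 0.10), with an interval of -0.15 to 0.24. Slc38a5, a glutamine carrier, had a log2 fold change of -0.45 (SE 0.26) that rested on PBS replicate 1 (9.75 CPM, against 4.09 to 5.76 CPM in the other 6 libraries), and it was 0.01 without that library.

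Caveolae are flask-shaped membrane pits that are sparse in barrier endothelium. Of their 3 genes in the list, 2 were lower at an unadjusted p under 0.05 (5.44% of all genes were). Cavin1, which encodes the coat protein needed to form caveolae (chromosome 11, 100956733 to 100970887), had the smallest p of the members. Its level was 14.4, 14.2, 16.1 and 15.3 CPM with TSP1 and 20.5, 21.6 and 19.7 CPM with PBS. The groups were well apart, and libraries within a group were close together: 15 ± 0.903 CPM (SD, n = 4) against 20.6 ± 0.953 CPM (SD, n = 3), 27.2% lower. The log2 fold change was -0.46 (SE 0.09, edgeR p = 0.00013, adjusted p = 0.117), and Cavin1 passed in DESeq2 (adjusted p = 0.0223) and in edgeR's exact test (adjusted p = 0.00727), within a range over all alternatives of 0.00727 to 0.453. Cav1, the caveolin that scaffolds the pit (chromosome 6, 17306335 to 17341452), had 14, 12, 15 and 12.6 CPM with TSP1 and 16.5, 15.3 and 15.8 CPM with PBS. These groups did not overlap either (log2 fold change -0.24, SE 0.10, edgeR adjusted p = 0.473). Cavin2, a further coat protein, had overlapping groups and a log2 fold change of -0.14 (SE 0.16).

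Of 7 receptor and signalling genes, 2 were lower at an unadjusted p under 0.05 (5.44% of all genes were) and the median was -0.17. Adgrl4, an adhesion G protein-coupled receptor of endothelium (chromosome 3, 151437887 to 151545086), had 17.2, 15.7, 20.1 and 17.7 CPM with TSP1 and 21.5, 25.8 and 19.7 CPM with PBS. Its groups overlapped through TSP1 replicate 3 and PBS replicate 3 (log2 fold change -0.34, SE 0.11, edgeR adjusted p = 0.337). Ramp2, the partner of the adrenomedullin receptor (chromosome 11, 101246028 to 101259546), had 11.3, 13.2, 12.6 and 9.21 CPM with TSP1 and 14.5, 17.3 and 13.1 CPM with PBS. TSP1 replicate 2 and PBS replicate 3 were level, and the log2 fold change was -0.37 (SE 0.13, edgeR adjusted p = 0.403). An annotated transcript of Vps25 on the same strand shares 33.4% of the exon length of Ramp2, and Vps25 was counted at 0.183 to 1.39 CPM. Reads of the shared part may have gone to either gene or to neither, so the counts of Ramp2 are uncertain.

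The other receptors had smaller differences. Eng, the TGF-beta co-receptor endoglin, was at -0.22 (SE 0.11), Cd93 at -0.17 (SE 0.15) and Tie1, an orphan relative of the angiopoietin receptor, at -0.15 (SE 0.16) on the log2 scale. Ptprb, the endothelial phosphatase VE-PTP, and the adhesion receptor gene Adgrf5 were among the higher members in CPM, with 53.4 to 73.6 CPM and 37.3 to 56.5 CPM in the TSP1 libraries. On the log2 scale Ptprb was at 0.03 (SE 0.10) and Adgrf5 at -0.02 (SE 0.13), and leaving out a library could turn either sign.

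Surface and secreted glycoproteins held the largest differences of single genes and the lowest class median, -0.33. Of 8 genes, 5 were lower at an unadjusted p under 0.05 (5.44% of all genes were). Relative to the mean of the 7 libraries, the class stood at 0.24, 0.42 and -0.01 log2 units in PBS replicates 1 to 3. With TSP1 it stood at -0.32 to -0.02, so PBS replicate 3 was close to the TSP1 range. Differences between the classes were not tested. Vwf encodes von Willebrand factor, the clotting glycoprotein that endothelial cells, above all those of veins, store in granules (chromosome 6, 125546774 to 125686679). Its level was 38.9, 30.6, 33.7 and 27.7 CPM with TSP1 and 68.8, 72.4 and 46.6 CPM with PBS. PBS replicates 1 and 2 were far above the TSP1 libraries and PBS replicate 3 lay between. The means were 32.7 ± 4.81 (SD, n = 4) and 62.6 ± 14 CPM (SD, n = 3), a level 47.9% lower with TSP1. The log2 fold change was -0.94 (SE 0.17, edgeR adjusted p = 0.171). Vwf passed in DESeq2 (adjusted p = 1.84e-06), in edgeR's exact test (adjusted p = 0.000223) and, by the quasi-likelihood test, without PBS replicate 3 (log2 fold change -1.11, adjusted p = 0.00934), and its adjusted p over all alternatives reached 0.368.

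Ly6c1 and Ly6a encode small lipid-anchored surface proteins of the Ly6 family, and Ly6a is also induced by interferons. They are neighbours on chromosome 15 (75044018 to 75048830 and 74994877 to 74998031, with 46 kb between them). Ly6c1 had 33, 34.4, 30.6 and 24.7 CPM with TSP1 and 47.9, 53 and 36.5 CPM with PBS, so that PBS replicate 3 was just above the TSP1 range. Its log2 fold change was -0.58 (SE 0.14, edgeR adjusted p = 0.256). Ly6a had 21.2, 13.1, 15.3 and 13.7 CPM with TSP1 and 33.3, 37.7 and 20.5 CPM with PBS, where TSP1 replicate 1 exceeded PBS replicate 3. Its log2 fold change was -0.96 (SE 0.25, edgeR adjusted p = 0.328), close to that of Vwf, and the order of the pair differed between alternatives. Of the 50-base words in transcripts of Ly6c1, 32.8% also occur in other genes, mainly Ly6c2, which was counted at 0 to 0.191 CPM. Of those of Ly6a 19.0% do, mainly in Ly6c1 (15%), so reads could be split between the copies and the counts of Ly6a and Ly6c1 may not be fully separate. Both passed in DESeq2 (adjusted p = 0.0109 and 0.000723) and in edgeR's exact test (adjusted p = 0.0256 and 0.0391), and over all alternatives reached 0.457 and 0.596.

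Podxl, a charged sialomucin of the luminal surface (chromosome 6, 31519488 to 31563981), had 44.7, 40.3, 37.3 and 34.8 CPM with TSP1 and 47.4, 56.6 and 41.4 CPM with PBS. TSP1 replicate 1 and PBS replicate 3 crossed, and the log2 fold change was -0.31 (SE 0.11, edgeR adjusted p = 0.401). Egfl7, whose promoter window is printed above (gene on chromosome 2, 26580014 to 26593120), had 21, 17.5, 17.7 and 15.6 CPM with TSP1 and 21.8, 21.9 and 19.6 CPM with PBS. Its log2 fold change was -0.24 (SE 0.10, edgeR adjusted p = 0.479), with TSP1 replicate 1 inside the PBS range. Icam2, an adhesion molecule for leukocytes, had 1.63 to 1.88 CPM with TSP1 and 1.58, 3.43 and 1.59 CPM with PBS. Its log2 fold change of -0.35 (SE 0.29) thus rested on PBS replicate 2, and was 0.12 without it. Itm2a was at -0.03 (SE 0.13), and Emcn, the sialomucin endomucin of capillaries and veins, at 0.19 (SE 0.17), with 4.39 to 5.87 CPM with TSP1 and 3.87 to 4.83 CPM with PBS.

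**Figure D4:**
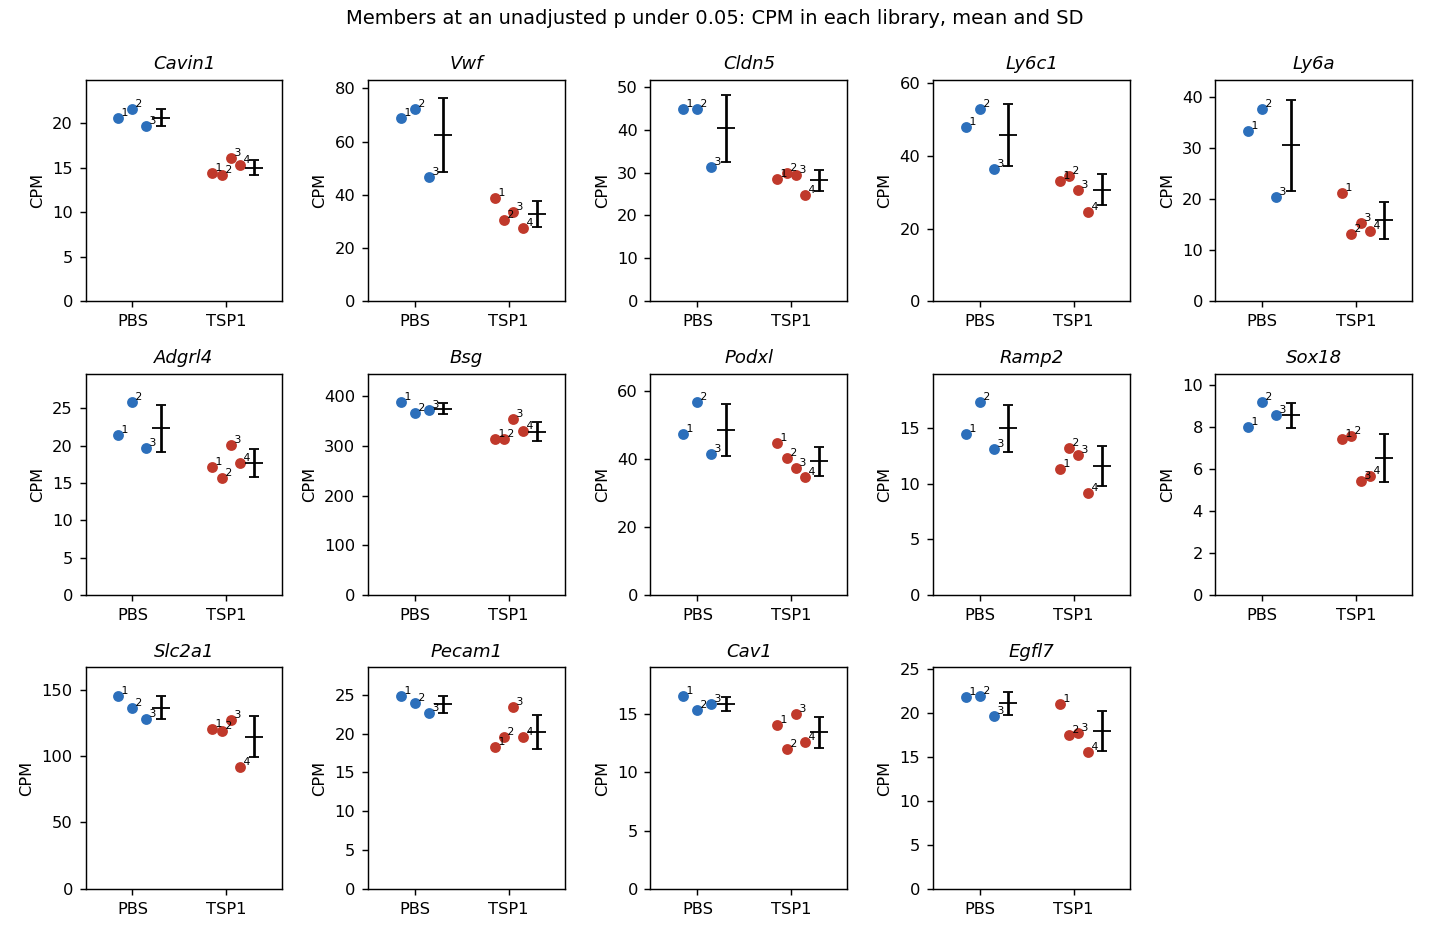
CPM in each library (numbered points, blue PBS and red TSP1) of the 14 members at an unadjusted p under 0.05, with group mean and SD as black bars; each axis starts at 0. The groups are well apart for Cavin1 (14.2 to 16.1 CPM with TSP1, 19.7 to 21.6 CPM with PBS), and for Vwf, Cldn5, Ly6c1 and Ly6a PBS replicate 3 lies nearest to the TSP1 points.

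Of the 5 transcription factor genes, 1 was lower at an unadjusted p under 0.05 (5.44% of all genes were), and the median was -0.14. Sox18, a SOX factor of vascular development (chromosome 2, 181669836 to 181671640), had 7.45, 7.59, 5.43 and 5.67 CPM with TSP1 and 7.98, 9.17 and 8.56 CPM with PBS. All TSP1 libraries were below all PBS libraries, though 2 of them only slightly (log2 fold change -0.39, SE 0.15, edgeR adjusted p = 0.444). Its relative Sox17 was at -0.25 (SE 0.16), with 5.07 CPM in TSP1 replicate 4 against 7.86 to 8.38 CPM in the other TSP1 libraries, and 16.8% of its exon length overlaps a gene on the opposite strand. Erg, the ETS factor that maintains endothelial identity, had 5.63 ± 0.669 CPM (SD, n = 4) and 5.74 ± 0.823 CPM (SD, n = 3), with an interval of the log2 fold change from -0.34 to 0.29. Foxq1 and Lef1, the latter a transcriptional partner of beta-catenin in Wnt signalling, were at -0.14 (SE 0.25) and 0.09 (SE 0.21), at levels of 1.32 to 3.03 CPM. Of the exon length of Foxq1, 66.1% overlaps an antisense gene, and reads of the pair cannot be told apart without strand.

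Relative to the mean of Cldn5, Pecam1 and Cdh5 in the same library, the differences were shifted upward. The same marker mean is subtracted from every gene of a library. The order of genes on this scale therefore follows that of the fold changes by construction and is no separate result. Of the other 36 members, 28 were higher and 8 lower with TSP1 on this within-library scale, with a median difference of 0.10 log2 units. Of all 17208 tested genes other than the markers, 93.2% were higher on it, with a median of 0.32. Farthest below the 3 markers were Ly6a (-0.61), Vwf (-0.60), Ly6c1 (-0.26) and Cavin1 (-0.14). Farthest above them were Emcn (0.49), Lef1 (0.41), Slc7a5 (0.36), Ptprb (0.34), Tjp1 (0.31) and Itm2a (0.30). The groups did not overlap on this scale for 1 member lower with TSP1, Vwf (0.215% of all genes), and for 6 higher, Slco1c1, Slco1a4, Erg, Ptprb, Slc7a5 and Lef1 (24.8% of all genes). The 3 markers had lower fitted values with TSP1 themselves, which shifts every other gene upward on this scale, so the 28 and the 6 are no result about the members, and no test was made.

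Length and base composition were related to the fold change across members. Over the 39 genes, log2 exon length had a Pearson r of 0.35 (Spearman 0.50) with the log2 fold change and GC content -0.33 (-0.41), while over 17164 genes the values were 0.12 (0.20) and -0.11 (-0.18). These are relations across genes of the same 7 libraries, and genes are not independent replicates. With each library's trend in length and GC removed, 13 members were lower at an unadjusted p under 0.05 and the median was -0.19.

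Other endothelial and barrier genes had a median closer to 0, a difference that was not tested. Of 140 tested genes outside the list, 16 were lower at an unadjusted p under 0.05 (11.4%, against 5.44% of all genes) and 5 higher (4.21% of all genes), with a median log2 fold change of -0.06, and 0 passed by FDR (DESeq2 called 2, edgeR's exact test 2). Of 34 other pan-endothelial genes 29 were below 0 (median -0.15) and 5 were lower at that p, among them Pglyrp1 (-0.62, SE 0.19) and the ETS factor gene Fli1 (-0.50, SE 0.20), while Arhgap29 was higher (0.35, SE 0.09). In the venous list 4 of 10 genes were lower and the median was -0.27, led by Lcn2 (-1.99, SE 0.34), which reactive astrocytes also make, with the interleukin-1 receptor gene Il1r1 (-0.51, SE 0.17). The mean level of the venous list was 0.36, 0.32 and -0.06 log2 units in PBS replicates 1 to 3. With TSP1 it was -0.27 to -0.10, so PBS replicate 3 lay close to the TSP1 libraries. In the arterial list 0 of 15 were lower and 1 was higher, Vegfc (0.57, SE 0.21; list median 0.02), and in the capillary list 1 of 10 was lower, Rgcc (-0.35, SE 0.10), and 1 higher, Hmcn1 (0.58, SE 0.22; median -0.05). The differences between these lists were not tested.

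Of 16 other junction genes, 2 were lower at that p (5.44% of all genes were), and the median was -0.03. They were F11r (-0.44, SE 0.14), which encodes the junction adhesion molecule JAM-A, and Lsr (-0.52, SE 0.22), which seals contacts between 3 cells. Of 27 other barrier transporters and receptors, 2 were lower, Slc52a3 (-0.58, SE 0.20) and Slc39a8, and 2 higher, with a median of 0.06. In the Wnt and beta-catenin list, 1 of 24 genes was lower, the co-receptor gene Lrp5 (-0.20, SE 0.09), and the median was -0.06. Of 11 tested genes of leaky or activated endothelium, 10 were below 0 (48.9% of all genes were) and 1 was lower at that p, the apelin gene Apln (-0.48, SE 0.13). Transcripts of Selp, Sele, Esm1 and Aplnr were under the low-count filter.

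Markers of some other cell types also had lower values with TSP1. For comparison, 48.9% of all genes tested were below 0 and 5.44% were lower at an unadjusted p under 0.05. Of 12 astrocyte markers 11 were below 0 (median -0.17, 4 lower at that p, S100b with the smallest at -0.42, SE 0.08), and their summed level was 5630 to 6920 CPM with TSP1 and 6500 to 7540 CPM with PBS. Of 13 microglia and macrophage markers 11 were below 0 (median -0.21, 6 lower, C1qa at -0.52, SE 0.10), at 419 to 525 and 534 to 606 CPM. The 10 tested of 12 pericyte and smooth muscle markers split evenly around 0 (5 below, 241 to 290 and 256 to 274 CPM; Tagln and Cnn1 under the filter), with Pdgfrb higher (0.25, SE 0.08) and Kcnj8 lower (-0.54, SE 0.21) at that p. The 8 neuronal markers had a median of 0.09 (8800 to 10800 and 9710 to 10800 CPM), the 10 fibroblast markers -0.18 (370 to 555 and 442 to 555 CPM) and the 10 oligodendrocyte markers -0.12 (3200 to 8790 and 4820 to 6090 CPM). The 9 striatal neuron markers had a median of 0.55 (248 to 612 and 234 to 257 CPM), the 7 tested of 10 blood markers 0.29 (49.8 to 349 and 94.1 to 134 CPM; S100a8 and Ppbp at 0 in some libraries) and the 3 tested of 7 choroid plexus and ependymal markers 0.41 (6 to 23.5 and 6.62 to 9.11 CPM; Ttr, Folr1 and Ccdc153 at 0 in some libraries). Their part in the endothelial values was not tested. The library numbers of the groups (1 to 4 for TSP1; 8, 11 and 12 for PBS) do not interleave, so any effect of library order and the treatment cannot be told apart.

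**Figure D5:**
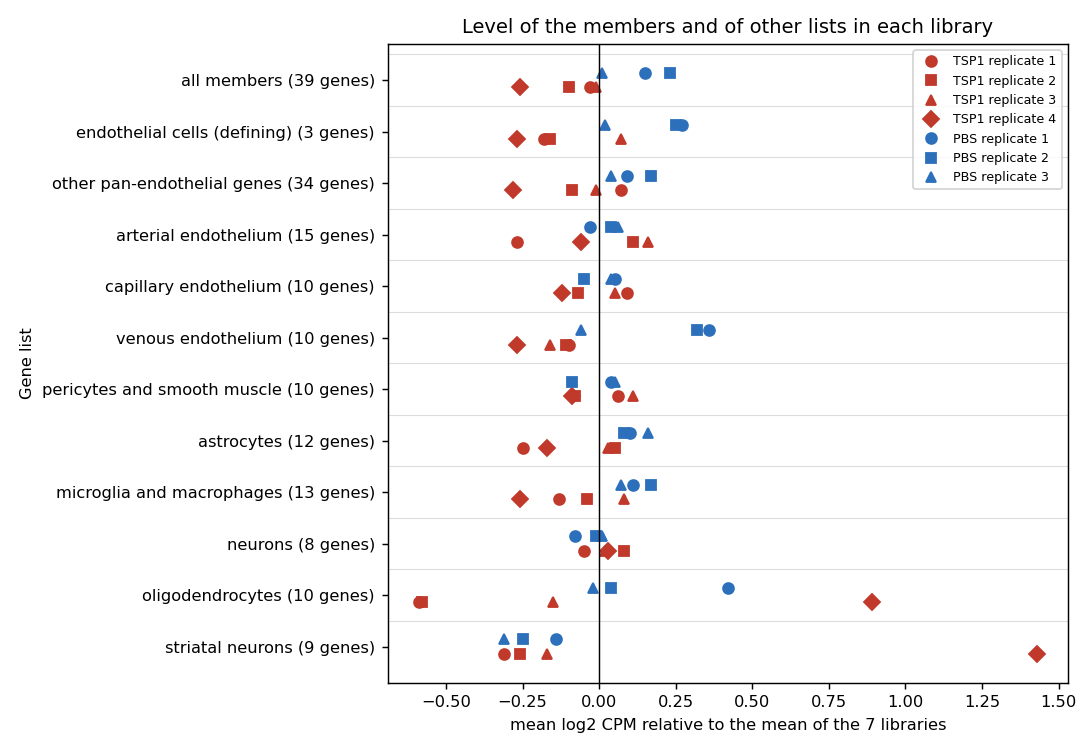
Mean log2 CPM of each gene list relative to the mean of the 7 libraries (horizontal axis), 1 point per library, blue PBS and red TSP1, with marker shapes for replicates. Over all 39 members TSP1 spans -0.26 to -0.01 and PBS 0.01 to 0.23, and TSP1 replicate 4 lies at 1.43 in striatal and 0.89 in oligodendrocyte genes.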

How the data were processed

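RNA of 7 mouse mPFC samples was sequenced after a column extraction and a SMARTer mRNA library preparation, per the labels' protocols. The authors deposited raw counts per Ensembl gene, judged so from their whole values and unequal totals; every gene has at least 5 counts in all. The submitters' processing notes name GRCm38 and mm10; the sources used here do not give the aligner, counter, annotation or use of strand. A column went to the sample whose description begins with its number, which left 0 columns over. Of 25467 identifiers 25375 matched GENCODE (release for GRCm38), from which symbols, coordinates (counted from 1) and exon length come.

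All genes were fitted with edgeR 4.0.16 (R 4.3.3; filterByExpr, TMM, robust glmQLFit, glmQLFTest on group, two-sided) with Benjamini-Hochberg FDR under 0.05 over 17211 genes. SE came from the fold change and its F statistic (median 0.11), 95% intervals use the normal quantile, and log2 levels use a prior count of 2. P-values measure the spread between these libraries. Replicates of a group differed beyond sampling noise (chi-square per degree of freedom 4.26 to 14.7). Alternatives were RLE factors, DESeq2 1.42.0, edgeR's exact test, limma-voom (limma 3.58.1), no filter, at least 5 CPM in 3 libraries, a replicate block, a length and GC correction (splines with 4 degrees of freedom) and leaving out each library. In the replicate block TSP1 replicate 4 has no PBS library of its number, so it adds nothing to the fold change there. The scripts were tested on simulated counts. Members and lists were chosen with earlier results of these data known. Values in every library are given for the 3 defining markers and every member at an unadjusted p under 0.05; from other lists the gene of smallest p and up to 3 genes are named, except that some are not reported here. Ctgf, Sdpr and Gpr116 found no symbol match; the last 2 are older names of the members Cavin2 and Adgrf5.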

Additional observations from a re-analysis of the deposited data

Results flagged for a closer look

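Among the 4 TSP1 libraries, Sox17 in TSP1 replicate 4 was far from the others, with 5.07 CPM against 7.86 to 8.38 CPM; the gap was 0.843 of the range of the group. Of 39 members checked in this way 1 stood out, and chance singles out about 5% of groups of this size. The 3 PBS libraries were too few for the same check.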

How the results depend on the processing

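No sign of the member median changed under the 16 alternatives, which gave -0.25 to -0.13. Among all genes, FDR under 0.05 was met by 88 in DESeq2, 85 in edgeR's exact test, 19 without a filter and 0 to 9 with libraries left out (9 without PBS replicate 3). Among members it was met by 5 in DESeq2, 5 in the exact test and 0 to 2 with libraries left out (2 without PBS replicate 3), and among other endothelial genes by 2, 2, 1 without a filter and 0 to 1. Deviations from the group means correlated at -0.261, -0.033 and 0.01 between libraries of the same replicate number, and at -0.121 to 0.218 between different numbers. The labels state no pairing, and so few pairs cannot exclude one. With the replicate block 9 members were lower at an unadjusted p under 0.05, against 14 in the main fit. With the block and the length and GC correction 8 were. Over all genes, 1366 passed that p in either direction with the block and 1265 with the block and that correction. In the main fit 9.65% of the 17211 genes did. Whether the members lost more than other genes was not tested. With libraries left out 7 to 15 members were lower at that p (7 without PBS replicate 2). Every TSP1 library lay below every PBS library for 8 to 18 members with libraries left out (18 without PBS replicate 3, where 8.44% of all genes did, and 14 without TSP1 replicate 1, where 7.38% did); this count cannot fall when a library is left out, so it shows nothing on stability. Other endothelial genes lower at that p numbered 7 with at least 5 CPM in 3 libraries, and 4 to 9 were higher with libraries left out (9 without TSP1 replicate 4). All-gene counts in either direction were 1299 with that filter and 1654 without TSP1 replicate 4. Of the 14 members, 6 (Cldn5, Ly6c1, Ly6a, Vwf, Cavin1 and Bsg) stayed under an unadjusted p of 0.05 in all 7 fits without 1 library, and 7 did not without PBS replicate 2. The same counts over all genes were not made, so whether the members differ from other genes in this was not tested.

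The sign turned for 11 members, each with adjusted p of 0.797 or more there, and the cause was not tested. With the replicate block Abcb1a was 0.01, Itm2a 0.01, Erg 0.03, Tjp1 0.01 and Adgrf5 0.08. With the block and the length and GC correction Itm2a was 0.03, Erg 0.05 and Adgrf5 0.03. With that correction alone Ptprb was -0.03, and with the 5 CPM filter Tjp1 was 0.00. With libraries left out, ranges were -0.12 to 0.00 for Slco1a4, -0.19 to 0.01 for Abcb1a, -0.14 to 0.13 for Itm2a, -0.10 to 0.10 for Erg, -0.03 to 0.03 for Tjp1, -0.04 to 0.14 for Slc7a5, -0.04 to 0.11 for Ptprb, -0.11 to 0.08 for Adgrf5, -0.01 to 0.23 for Lef1, -0.65 to 0.01 for Slc38a5 and -0.55 to 0.12 for Icam2. Icam2, Foxq1 and Lef1 had few reads and SE of 0.21 to 0.29, and Slc38a5 (0.26) and Ly6a (0.25) had SE in the same range; the share of depth in these was not tested.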
